A study of Saccharomyces cerevisiae with 6 samples.

Results

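The 9 genes described here encode the enzymes and the mitochondrial carrier that make arginine in the budding yeast Saccharomyces cerevisiae. They were taken by name from a table of 5795 annotated open reading frames (ORFs), and all 9 were found and measured: ARG2, ARG5,6, ARG8, ARG7, ORT1, CPA1, ARG3, ARG1 and ARG4. The choice used gene names and no measured value, although the pathway was picked with earlier results of these data known.

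Total RNA was sequenced, strand by strand and after removal of rRNA, from wild-type cells grown with glutamine, wild-type cells grown with proline and dal80-delta (dal80Δ) cells grown with proline, with 2 biological replicates in each of the 3 groups. Yeast uses glutamine readily, and nitrogen catabolite repression (NCR) is then in force. On proline, which is used poorly, that repression is lifted. Dal80 is a GATA factor, known mainly as a repressor of NCR-sensitive genes. The comparisons ask how the synthesis genes respond to the nitrogen source and to the loss of Dal80 in proline. The study's strain table gives ura3, his3 and trp1 for the wild type and the mutant alike, the wild type as MATα, and the mutant as MATa with DAL80 replaced by kanMX. The medium was minimal, with glucose, and the study's methods name uracil, histidine and tryptophan as supplements and no arginine. A dal80Δ culture in glutamine was not analysed here, so the mutation is seen in proline only.

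Arginine is built from glutamate in 2 compartments. In mitochondria Arg2 acetylates glutamate, the protein encoded by ARG5,6 supplies the kinase and reductase that act next, Arg8 is the aminotransferase and Arg7 releases ornithine while passing the acetyl group back to glutamate. Ort1 carries ornithine out to the cytosol, where Arg3 joins it to carbamoyl phosphate, which CPA1 helps to supply, and Arg1 and Arg4 convert the resulting citrulline to arginine. In yeast these genes are known targets of the activator Gcn4, and several are repressed, when arginine is plentiful, by a complex of Arg80, Arg81, Mcm1 and Arg82.

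Because Gcn4 and the GATA factors are the regulators named above, the letters TGACTC (the core that Gcn4 recognises) and the letters GATAAG or GATTAG, called GATA motifs here, were searched on both strands of the 300 bases before the deposited transcript start of each gene, in the R64 genome of RefSeq. For CPA1 the start of the YOR302W transcript was used, since YOR302W is the leader ORF of the CPA1 mRNA. TGACTC lay in 8 of the 9 windows, all but that of ARG2, and in 8.09% of the 5771 windows of all transcripts. ARG5,6, CPA1 and ARG1 held 2 matches each, and the share of all windows with 2 or more TGACTC was not computed. The stretches around the 11 matches are shown so that the core and its flanks can be compared, each read along the strand of the gene, with the core or its reverse complement GAGTCA in capitals.
ARG5,6 upstream match, chr5:295175-295204 (plus strand): ttcttatccgaaTGACTCagtctacatcaa
ARG5,6 downstream match, chr5:295221-295250 (plus strand): ggtggtaattgaTGACTCttctattttttt
ARG8, chr15:58567-58596 (plus strand): cagctcgctatgTGACTCacttaaagtaca
ARG7, chr13:396514-396543 (minus strand): ggacaggtaggaTGACTCactgcgtaattc
ORT1, chr15:571021-571050 (minus strand): agttctgcatcgTGACTCaccttgagctcg
CPA1 upstream match, chr15:882403-882432 (plus strand): tggaagggtgttTGACTCatcatcgcatcg
CPA1 downstream match, chr15:882592-882621 (plus strand): cttttcttttctTGACTCgtcgtttctttt
ARG3, chr10:268481-268502 (plus strand): gtcgTGACTCatatgctttctt
ARG1 upstream match, chr15:218854-218883 (plus strand): gtgattttttagTGACTCatgtcgcatttg
ARG1 downstream match, chr15:218925-218954 (plus strand): tgccgtatggaaGAGTCAtttaaaggcagg
ARG4, chr8:141564-141593 (minus strand): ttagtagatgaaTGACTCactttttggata

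The ARG3 match began 296 bases before the transcript start, at the edge of the window, so fewer flanking bases are shown for it. The only reverse-strand core was the downstream match of ARG1, 210 bases before the start. The other matches lay between 281 bases before the start, in ARG1, and 61 bases before it, in ARG7. A match is a description of letters and not evidence of binding.

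GATAAG or GATTAG lay in 4 of the 9 windows, those of ARG5,6, ORT1, CPA1 and ARG4, against 23.0% of all windows. ARG4 held 3 matches, and 2 or more were found in 3.43% of all windows. The whole windows of ARG5,6 and ARG4 are shown because each places a GATA motif close to a Gcn4 core. Capitals mark both kinds of motif, and CTTATC is GATAAG read on the other strand.
ARG5,6, chr5:295055-295354 (plus strand): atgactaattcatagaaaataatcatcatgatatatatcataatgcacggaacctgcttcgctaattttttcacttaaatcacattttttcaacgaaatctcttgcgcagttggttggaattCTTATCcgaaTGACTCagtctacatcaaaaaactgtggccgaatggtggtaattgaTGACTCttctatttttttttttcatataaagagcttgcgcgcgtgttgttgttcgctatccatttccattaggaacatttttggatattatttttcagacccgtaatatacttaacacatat
ARG4, chr8:141462-141761 (minus strand): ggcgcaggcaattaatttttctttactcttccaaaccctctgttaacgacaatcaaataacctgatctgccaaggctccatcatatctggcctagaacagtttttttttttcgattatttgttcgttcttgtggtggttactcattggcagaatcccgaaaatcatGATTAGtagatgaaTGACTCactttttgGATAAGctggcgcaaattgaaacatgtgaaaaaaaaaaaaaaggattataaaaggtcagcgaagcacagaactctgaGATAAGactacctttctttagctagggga
In ARG5,6 the GATA motif began 178 bases and the nearest core 168 bases before the transcript start. No GATA match overlapped a Gcn4 core in any of the 9 windows.

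**Figure D1:**
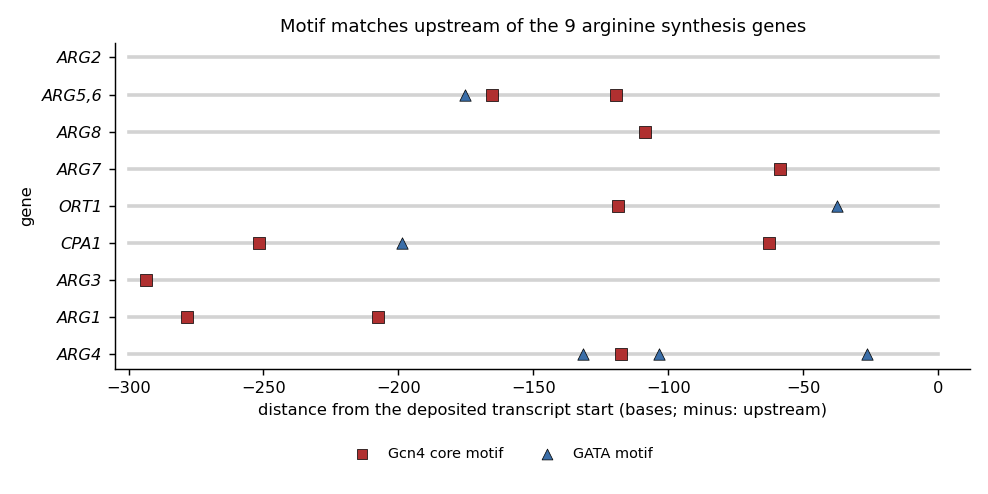
Positions of Gcn4 core motifs (squares) and GATA motifs (triangles) in the 300 bases before the deposited transcript start of each of the 9 genes, with the distance from the start in bases on the horizontal axis. ARG2 has no match of either kind, and ARG4 has 3 GATA matches around its Gcn4 core.

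The libraries held 12304015 to 19968312 reads on ORFs. Values below are scaled reads, that is reads on the ORF multiplied by the authors' factor for that library, or densities, which are scaled reads per base. Replicates of a group differed by more than counting noise (chi-square per degree of freedom of 43.1 to 71.8), so no library was a copy of another. The deleted gene was as labelled: DAL80 stood at 16.0 and 17.7 scaled reads in glutamine, 3537 and 2729 in wild-type proline and 6.15 and 2.75 in dal80Δ. Mating markers went against a label. The 4 α-specific genes summed to 67743 to 77866 scaled reads in glutamine and 56143 to 72859 in wild-type proline, but to only 677 to 720 in dal80Δ. The 6 a-specific genes summed to 190 to 237 in glutamine and 6112 to 6958 in dal80Δ, and also to 2157 to 2460 in the wild-type proline libraries that the strain table gives as MATα. All 6 a-specific genes passed the test as higher in wild-type proline than in glutamine, and none of the 10 markers was at 0 in any library. The part of this signal in the values of the arginine genes was not tested, and in dal80Δ against wild type the mating type and the deletion cannot be told apart.

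All 9 synthesis genes were higher in wild-type cells in proline than in glutamine, by 2.13-fold for ARG4 to 14.3-fold for ARG3, and all 9 were lower in dal80Δ than in wild-type cells in proline, by 2.42-fold for CPA1 to 9.16-fold for ARG5,6. A call needed an adjusted p of at most 0.01 over all 5645 ORFs tested with limma and a change of at least 2-fold. Of all ORFs tested, 13.0% were called higher in proline and 4.43% were called lower in dal80Δ. These values use the factors in the deposited table, whereas the study's methods describe densities scaled by total ORF reads. Scaled by those totals, all 9 genes were again called in both comparisons, with log2 fold changes of 2.01 for ARG4 to 4.76 for ARG3 and of -1.54 for CPA1 to -3.45 for ARG5,6, but 2661 of the 5645 ORFs were called higher in proline and 440 lower in dal80Δ. The median of all ORFs then stood at 0.96 and -0.21. The median log2 fold change of the 9 genes was 1.68 in the nitrogen comparison, against 0.04 over all ORFs, and -2.09 in the mutant comparison, against 0.05. These comparisons use the same wild-type proline libraries, so a rise in the former and a fall in the latter are not independent.

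Together the 9 ORFs took 0.356% and 0.315% of the ORF reads in the glutamine libraries and 2.44% and 2.25% in the wild-type proline libraries. In dal80Δ they took 0.394% and 0.449%. By this share, which is relative to total ORF reads, the wild-type proline libraries stood apart and the dal80Δ libraries lay just above those in glutamine. That last order depends on the scaling. With the factors in the deposited table, 6 of the 9 genes were lower in dal80Δ than in glutamine and 3 were higher. Their median log2 fold change was then -0.55.

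**Figure D2:**
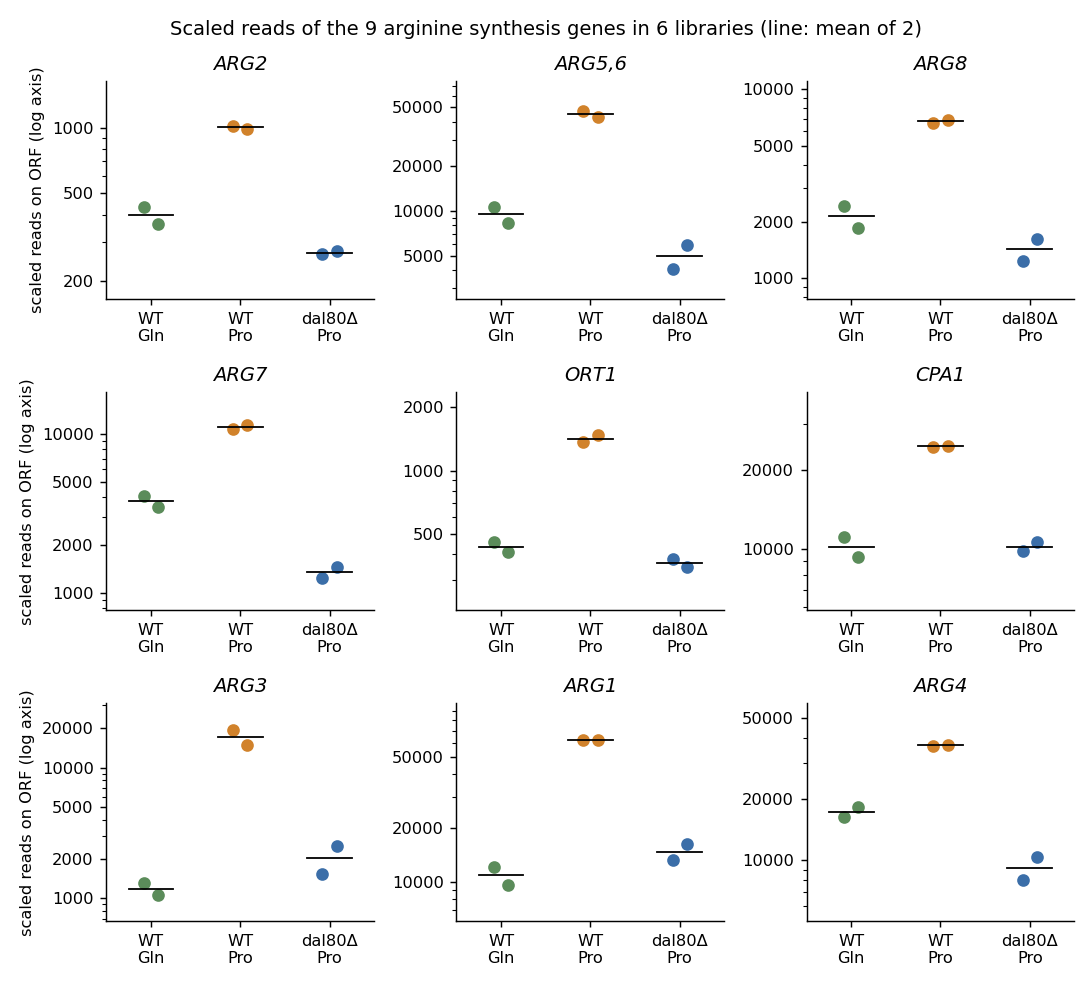
Scaled reads on the ORF (log axis, a separate range in each panel) of the 9 arginine synthesis genes in wild type with glutamine (WT Gln), wild type with proline (WT Pro) and dal80Δ with proline, where points are libraries and lines are means of 2. In every panel the wild-type proline libraries lie above all others, and ARG7 shows the widest gap between dal80Δ and glutamine on the lower side.

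ARG2 (YJL071W, chr10:306132-307856 on the plus strand) encodes the acetylglutamate synthase that opens the pathway. It had 432 and 362 scaled reads in glutamine, 1019 and 983 in wild-type proline and 264 and 274 in dal80Δ. The 3 groups did not overlap, and dal80Δ was the lowest. The log2 fold change was 1.34 in proline against glutamine (SE 0.129, limma adjusted p = 0.000116) and -1.89 in dal80Δ against wild type (SE 0.129, limma adjusted p = 7.51e-05). The deposited transcript of YJL070C, on the opposite strand, overlaps this ORF, and the libraries were strand-specific.

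ARG5,6 (YER069W, chr5:295410-298001, plus strand) had 10646 and 8275 scaled reads in glutamine, 46974 and 43091 in wild-type proline and 4064 and 5930 in dal80Δ. Its 2 enzymes come from 1 precursor protein that is cut in mitochondria. The gene rose 4.79-fold in proline (log2 2.26, SE 0.228, limma adjusted p = 0.000139). Its fall in dal80Δ, 9.16-fold (log2 -3.20, SE 0.228, limma adjusted p = 8.84e-05), was the largest of the 9 and the 22nd largest of all ORFs tested.

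ARG8 (YOL140W, chr15:58759-60030, plus strand), the acetylornithine aminotransferase gene, had 2416 and 1850 scaled reads in glutamine, 6652 and 6924 in wild-type proline and 1243 and 1617 in dal80Δ. It was the member closest to the average pattern of the 9. The log2 fold changes were 1.68 (SE 0.182, limma adjusted p = 0.000183) for proline and -2.26 (SE 0.182, limma adjusted p = 0.000153) for dal80Δ.

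ARG7 (YMR062C, chr13:395054-396379, minus strand) encodes the ornithine acetyltransferase, which recycles the acetyl group. It had 4067 and 3460 scaled reads in glutamine, 10798 and 11461 in wild-type proline and 1239 and 1450 in dal80Δ. Both dal80Δ libraries were far below the glutamine libraries, not only below those in proline. The rise in proline was 2.97-fold (log2 1.57, SE 0.149, limma adjusted p = 0.000111), and the fall in dal80Δ was 8.29-fold (log2 -3.05, SE 0.149, limma adjusted p = 1.69e-05).

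ORT1 (YOR130C, chr15:569929-570807, minus strand), the ornithine carrier of the inner mitochondrial membrane, was the second least dense of the 9 in every group. It had 459 and 409 scaled reads in glutamine, 1362 and 1475 in wild-type proline and 380 and 346 in dal80Δ. The log2 fold changes were 1.71 (SE 0.125, limma adjusted p = 4.32e-05) for proline and -1.96 (SE 0.125, limma adjusted p = 5.16e-05) for dal80Δ.

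CPA1 (YOR303W, chr15:882899-884134, plus strand) acts in the supply of carbamoyl phosphate for arginine, and its mRNA carries a leader ORF known to hold back CPA1 translation when arginine is abundant. It had 11108 and 9363 scaled reads in glutamine, 24664 and 24854 in wild-type proline and 9840 and 10617 in dal80Δ. The dal80Δ libraries lay within the span of the glutamine libraries. The log2 fold change was 1.28 in proline (SE 0.167, limma adjusted p = 0.000436). It was -1.28 in dal80Δ (SE 0.167, limma adjusted p = 0.0016), the smallest fall of the 9, and this call was lost, with adjusted p up to 0.0238, when any 1 of the 4 proline libraries was left out.

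ARG3 (YJL088W, chr10:268799-269815, plus strand) encodes ornithine carbamoyltransferase, which in this yeast is cytosolic. It had 1311 and 1068 scaled reads in glutamine, 19381 and 14774 in wild-type proline and 1538 and 2534 in dal80Δ. The dal80Δ libraries were above both glutamine libraries yet far below both wild-type proline libraries, and the replicates in proline were more spread than those of most members. Its 14.3-fold rise (log2 3.84, SE 0.254, limma adjusted p = 2.94e-05) ranked 37th among all ORFs tested. The 95% interval of that rise, 3.24 to 4.43 on the log2 scale, lay above the upper bound of every other member, ARG1 being the next. The fall in dal80Δ was 8.57-fold (log2 -3.10, SE 0.254, limma adjusted p = 0.000167). The deposited transcript of TRL1, on the opposite strand, overlaps ARG3.

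ARG1 (YOL058W, chr15:219211-220473, plus strand), the argininosuccinate synthase gene, was the densest of the 9 in proline in both strains. It had 12128 and 9655 scaled reads in glutamine, 62152 and 62294 in wild-type proline and 13208 and 16251 in dal80Δ. The log2 fold changes were 2.52 (SE 0.204, limma adjusted p = 6.09e-05) for proline and -2.09 (SE 0.204, limma adjusted p = 0.000379) for dal80Δ.

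ARG4 (YHR018C, chr8:140011-141402, minus strand) encodes argininosuccinate lyase, the last enzyme. It had 16306 and 18394 scaled reads in glutamine, 36574 and 37053 in wild-type proline and 8018 and 10352 in dal80Δ. Its rise in proline was the smallest of the 9 (log2 1.09, SE 0.193, limma adjusted p = 0.00186) and was no longer called when either library of wild-type proline was left out (adjusted p of 0.0116 and 0.0117). The fall in dal80Δ was 4.04-fold (log2 -2.01, SE 0.193, limma adjusted p = 0.000347).

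**Figure D3:**
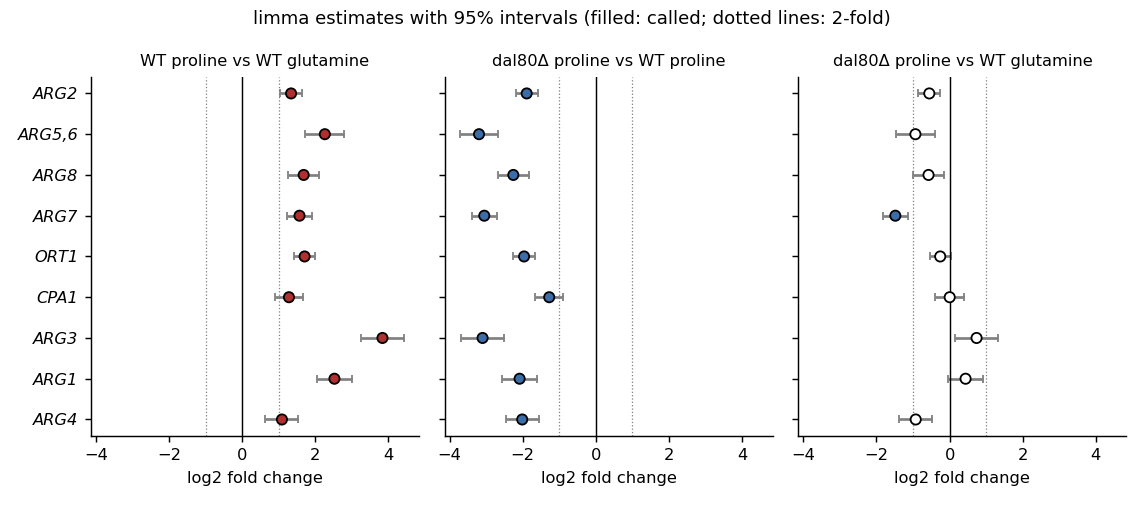
Log2 fold changes of the 9 genes with 95% intervals in 3 comparisons, as fitted by limma (filled points were called, dotted lines mark 2-fold). All 9 are above 1 in proline against glutamine and below -1 in dal80Δ against wild type, while ARG7 alone is called between dal80Δ in proline and wild type in glutamine (scaled by total ORF reads, ARG3 and ARG1 instead).

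Set against wild-type cells in glutamine, dal80Δ cells in proline differed by less than 2-fold in 8 of these 9 genes, although both strain and nitrogen source change in that comparison. With the factors in the deposited table none of the 9 was called higher and 1, ARG7, was called lower, where 11.9% of all ORFs tested were called higher and 13.4% lower. ARG7 was 2.80-fold lower (log2 -1.48, SE 0.149, limma adjusted p = 0.000184). The median of the 9 was -0.55, against 0.003 over all ORFs.

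The other estimates fell on both sides of 0. ARG5,6 and ARG4 had log2 fold changes of -0.93 each (limma adjusted p = 0.009 and 0.00435), which passed the p threshold but not the 2-fold threshold. ARG2 stood at -0.55 (limma adjusted p = 0.00729), in the same position, and ARG8 at -0.58 (limma adjusted p = 0.0262). The intervals of 6 of the 9 genes left out 0, those of ARG2, ARG5,6, ARG8, ARG7, ARG3 and ARG4. These intervals are not adjusted for the number of ORFs tested, and their share over all ORFs was not computed. Many ORFs changed in this comparison, where 2518 of 5645 passed the adjusted p threshold with no fold threshold. ORT1 had an interval of -0.55 to 0.03 and CPA1 of -0.39 to 0.39, so changes of those sizes cannot be told from none. ARG3 was at 0.74 with an interval of 0.15 to 1.33 (limma adjusted p = 0.0366), and ARG1 at 0.44 with an interval of -0.04 to 0.91. ARG4 was also called lower without the first glutamine library, ARG5,6 without the second, and both without the second dal80Δ library, which gave 2, 2 and 3 calls. Calls also moved with the scaling. With libraries scaled by total ORF reads, as the study's methods describe for densities, ARG3 at 1.40 and ARG1 at 1.10 were called higher, ARG2, ARG8 and ORT1 turned to the higher side and ARG7 at -0.82 was no longer called, while the median of all ORFs rose to 0.66.

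By compartment, the 5 genes of the mitochondrial steps had a median log2 fold change of -0.58 in dal80Δ in proline against wild type in glutamine, and the 4 genes of the cytosolic steps one of 0.22, with ARG4 on the side of the mitochondrial genes. The mean log2 level of the cytosolic genes exceeded that of the mitochondrial genes by 2.26 and 2.36 in the glutamine libraries. The excess was 2.83 and 2.73 in wild-type proline and 3.06 and 3.22 in dal80Δ. The 3 groups did not overlap in this measure, which is a difference within each library and does not depend on the scaling. It is given as a description, as 2 libraries a group allow no permutation test below the usual thresholds. In wild-type proline against glutamine the cytosolic genes did not move alike. ARG3 (log2 3.84) and ARG1 (2.52) rose more than every mitochondrial gene (1.34 to 2.26), but CPA1 (1.28) and ARG4 (1.09) rose less than all of them. The excess was not computed without ARG3, the gene with the largest rise.

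Compared per base, the genes differed widely in level. In glutamine ARG4 was densest with 12.5 ± 1.06 scaled reads per base (SD, n = 2), followed by ARG1 with 8.62 ± 1.38 and CPA1 with 8.28 ± 0.998, whose libraries overlapped. ARG5,6 (3.65 ± 0.647), ARG7 (2.84 ± 0.324), ARG8 (1.68 ± 0.314) and ARG3 (1.17 ± 0.169) came next without overlap. ORT1 at 0.494 ± 0.0402 and ARG2 at 0.230 ± 0.0288 were the least dense, and the densest gene stood 54.2-fold above ARG2.

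The order changed in proline. In wild-type cells ARG1 led with 49.3 ± 0.0798 scaled reads per base, followed by ARG4 (26.4 ± 0.244) and CPA1 (20.0 ± 0.109), and ARG3 had moved from the 7th to the 5th place with 16.8 ± 3.20, overlapping ARG5,6 at 17.4 ± 1.06. ARG7 (8.39 ± 0.354), ARG8 (5.34 ± 0.151), ORT1 (1.61 ± 0.0906) and ARG2 (0.580 ± 0.0144) followed without overlap, and the span from ARG2 to ARG1 was 84.9-fold. In dal80Δ ARG1 (11.7 ± 1.70), CPA1 (8.28 ± 0.445) and ARG4 (6.60 ± 1.19) led. ARG3 (2.00 ± 0.692) and ARG5,6 (1.93 ± 0.509) could not be separated, nor could ARG8 (1.12 ± 0.208) and ARG7 (1.01 ± 0.112), and ORT1 (0.413 ± 0.0268) and ARG2 (0.156 ± 0.00437) were again the lowest.

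YOR302W, the leader ORF of the CPA1 mRNA, was called in the same directions as CPA1. Its log2 fold changes were 1.24 for proline and -1.60 for dal80Δ, both called. Its density was 3.79 to 4.26 times that of CPA1 in glutamine, 3.63 to 4.20 times in wild-type proline and 3.10 to 3.15 times in dal80Δ. YOR302W is a short ORF, so the edges of reads weigh more in its density than in that of CPA1.

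Among 14 genes of the wider pathway, 6 were called higher and 2 lower in proline against glutamine, where 13.0% and 15.6% of all ORFs were. In dal80Δ against wild type 2 were called higher and 2 lower, beside 3.60% and 4.43% of all ORFs. GCN4, the gene of the activator, had 11685 and 9417 scaled reads in glutamine, 23807 and 21528 in wild-type proline and 15711 and 14895 in dal80Δ. Its mRNA rose in proline (log2 1.11, limma adjusted p = 0.00123), and in dal80Δ its log2 fold change of -0.57 was not called (limma adjusted p = 0.0497). Gcn4 is known to be controlled mostly at translation, which these data do not measure.

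The genes of the arginine repressor complex were ARG80, ARG81, MCM1 and ARG82. ARG81, whose product senses arginine, rose in proline (log2 1.57) and was not called in dal80Δ, with 1151 and 1090 scaled reads in wild-type proline and 1022 and 851 in the mutant (log2 -0.26, interval -0.61 to 0.08). ARG80 stood at 0.50 and -0.65, MCM1 at 0.68 and 0.20 and ARG82 at 0.004 and -0.15 in the 2 comparisons, none of them called in either.

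Genes of arginine use and uptake were mixed. CAR2, the ornithine transaminase gene of arginine breakdown, fell in proline (log2 -2.27) and rose in dal80Δ (log2 2.01), the reverse of the synthesis genes, though its glutamine libraries were far apart at 471 and 998 scaled reads. CAR1, which encodes arginase, was at -0.88 and 0.25, not called. GAP1, the general amino acid permease gene and a known NCR target, had 7563 and 10523 scaled reads in glutamine, 71073 and 68427 in wild-type proline and 184624 and 196335 in dal80Δ, and was called higher in both comparisons (log2 2.97 and 1.45). CAN1, the arginine permease gene, rose in proline (log2 1.43) and was just under the 2-fold threshold in dal80Δ (log2 0.99, limma adjusted p = 0.00547), and ALP1, another basic amino acid permease gene, was at 1.02 and -0.53, not called. URA2, which makes carbamoyl phosphate for pyrimidines, fell in proline (log2 -1.39) and was at 0.27 in dal80Δ. SPE1, the ornithine decarboxylase gene, was at -0.74 and -0.40, not called in either. In dal80Δ in proline against wild type in glutamine, ARG81, CAN1 and GAP1 were called higher and URA2 and SPE1 lower.

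**Figure D4:**
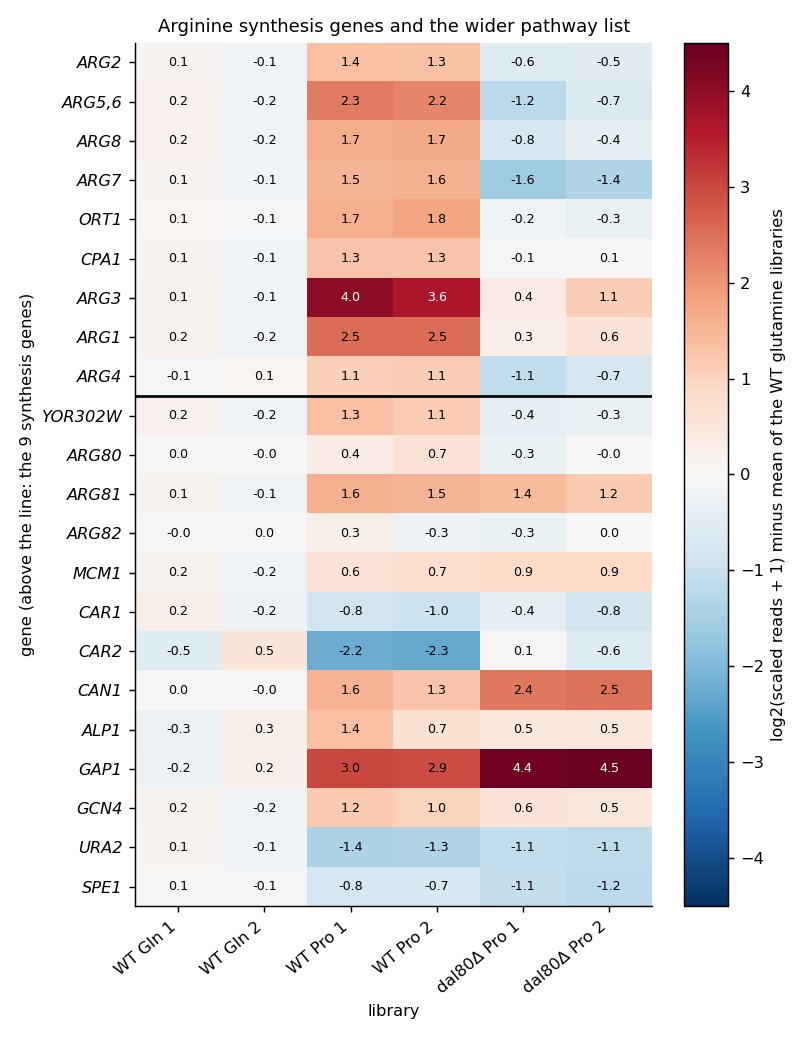
Levels of the 9 synthesis genes (above the line) and of wider pathway genes in each of the 6 libraries, as log2(scaled reads + 1) minus the mean of the 2 glutamine libraries. The synthesis genes and YOR302W are highest in the wild-type proline libraries, and so are GCN4, ARG80, ARG81 and ALP1. MCM1, CAN1 and GAP1 are highest in dal80Δ.

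Synthesis of lysine and of histidine, which Gcn4 also activates, is given for comparison, beside shares over all ORFs of 13.0% higher in proline and 4.43% lower in dal80Δ. Of 9 lysine genes, 2 were called higher in proline and 2 lower in dal80Δ, with medians of -0.31 and -0.75. Those called higher were LYS14 (log2 1.80) and LYS5 (1.16), and the rest lay between -1.21 (LYS9) and 0.17 (LYS1). Those called lower were LYS5 (-1.44) and LYS1 (-1.37). The lists were not matched by kind of gene, and regulators of arginine synthesis were kept out of the 9. Of the 6 histidine genes that could be tested (HIS3 carries a mutation in these strains and had almost no reads), 1 was called higher in proline and 4 lower in dal80Δ, with medians of 0.80 and -1.35. Arginine synthesis was the list in which all members were called in both comparisons, and the difference between lists was not tested.

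The genes nearest to the mean profile of the 9 over the 6 libraries, by Euclidean distance of centred log2 values, were RIB5 (0.359), KAR4 (0.380), CDC20 (0.384), MUC1 (0.388) and HIS5 (0.475). RIB5 encodes riboflavin synthase, KAR4 a factor of the mating response, CDC20 an activator of the anaphase-promoting complex, MUC1 a cell-surface flocculin and HIS5 an aminotransferase of histidine synthesis. RIB5 had 1513 and 1307 scaled reads in glutamine, 5877 and 5511 in wild-type proline and 834 and 974 in dal80Δ. The members' own distances to their mean ran from 0.286 for ARG8 to 1.97 for ARG3, so ARG8 was the only member nearer to it than RIB5, and ORT1 was level with HIS5 at 0.475.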

How the data were processed

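Strand-specific, rRNA-depleted total RNA-seq of 6 libraries (3 groups of 2) was analysed. The authors aligned reads with TopHat to build R64 and kept uniquely mapped reads. Their deposited counts are whole reads for the first glutamine library. For the remaining 5, the deposited signal is the read number times a library factor (0.551 to 1 over all libraries), and densities (signal) are these values per base. The 6 columns of authors' means were not used. Division by the factor returned whole reads for 100% of values within 1e-06.

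The 4 plasmid ORFs were left out of 5795, and filterByExpr kept 5645 of 5791. limma (3.58.1, R 4.3.3) with trend was fitted to log2(scaled reads + 1), 1 term per group, all 6 libraries, with 3 residual and 4.54 prior degrees of freedom. Fold changes are on that scale and understate changes of low genes. P-values were adjusted after Benjamini and Hochberg, and a gene was called at 0.01 with a 2-fold change or more. The study's methods name the same 2 cutoffs, for DESeq and with no mention of adjustment, and densities scaled by total ORF reads, whose factors (0.827 to 1.34) differ from the deposited ones. edgeR (4.0.16) and DESeq2 (1.42.0) were run on recovered reads among 17 alternatives. The members, gene lists and motifs were chosen with earlier results of these data known. All 9 members are named, with genes of a pathway list of 14, the lysine and histidine lists as counts with some genes named, and the 5 nearest profiles. Bulk RNA cannot separate fewer cells from less RNA per cell. Replicate numbers were not used to pair cultures. The values of 1 gene counted in the pathway list are not reported here.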

Additional observations from a re-analysis of the deposited data

How the results depend on the processing

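For the nitrogen comparison and for the mutant in proline, 9 of 9 genes were called under every alternative except some that left out a library, where the counts ranged from 8 to 9 in each. The count for dal80Δ in proline against wild type in glutamine was 1. It was 2 with scaling by total ORF reads (both higher), 4 with no fold threshold (all lower) and 1 to 3 when a library was left out: 2 without the first or the second glutamine library and 3 without the second dal80Δ library. In that comparison total scaling turned ARG2 to 0.10, ARG8 to 0.084 and ORT1 to 0.40, and CPA1, at 0.003 and between -0.12 and 0.13 when a library was left out, changed sign to -0.00021 with DESeq2, -0.12 without the second glutamine library and -0.05 without the second dal80Δ library. Total scaling shifted the median of all ORFs to 0.96, -0.21 and 0.66 in the 3 comparisons (TMM: 0.16, 0.005 and 0.08), and the median of the 9 genes to 2.60, -2.35 and 0.10. Of all ORFs it called 2661 higher and 189 lower in proline against glutamine (main: 733 and 878), 138 and 440 in dal80Δ against wild type (main: 203 and 250) and 1891 and 179 in the last comparison (main: 671 and 754). With no fold threshold 2736, 771 and 2518 ORFs were called in all (main: 1611, 453 and 1425), and edgeR on recovered reads called 1673, 470 and 1422. Without a library, the totals were 1406 to 1733, 201 to 521 and 937 to 1528, the lowest of the last 2 ranges being without the first dal80Δ library. The causes were not tested.

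Same-numbered libraries deviated with correlations of -0.24, 0.03 and 0.18, so the numbers were not taken as pairs. With the replicate block 9, 9 and 1 genes were called. With the numbers of wild-type proline crossed in the block, chosen after seeing the data, 9 were called in proline against glutamine. With 2 libraries a group, p-values rest on a spread shared over groups and genes. Counting error was small for these genes, which had at least 368 recovered reads on the ORF in every library.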
